A study of Mus musculus with 2 samples.

Results

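Among the single cells of the mouse aorta-gonad-mesonephros (AGM) region, 90 barcodes carried RNA of white blood cells but almost none of the complement genes of macrophages. They were chosen from 16418 barcodes with at least 2000 UMIs (unique molecular identifiers, 1 for each captured RNA molecule) and under 10% of UMIs from mitochondrial genes. A member held at least 8 UMIs summed over Ptprc, Coro1a, Laptm5, Mpo and Prtn3, and at most 2 UMIs summed over C1qa, C1qb and C1qc. These 8 genes therefore describe the choice and are not results. The WT library held 46 members among 8253 barcodes, which is 0.557% (0.408 to 0.743%), and the KO library held 44 among 8165, which is 0.539% (0.392 to 0.723%).

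The study asked how PDGFRβ, a receptor of perivascular cells, acts on blood cell formation in the embryo. Whole AGMs of embryonic day 11 were dissociated with collagenase, and 1 library of 10x 3′ single-cell RNA was made for each genotype. WT embryos were PDGFRB +/+ and KO embryos were PDGFRB -/-, a loss present in every cell of the embryo, and the KO line was kept as heterozygotes on C57BL/6J. The WT library held 179743201 UMIs in all and the KO library 174597654. With 1 library per genotype there is no replicate, no test was made, and all intervals are exact 95% intervals that cover counting error only. Genotype, library and sex cannot be told apart; Xist and Y-linked genes are given at the end.

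The aortic wall of the AGM gives rise to the first blood stem cells, while the white blood cells found around it at this age come largely from earlier waves of the yolk sac. Granulocytes pack their granules in order: Mpo, Prtn3 and Elane, which encode myeloperoxidase and serine proteases, belong to the primary granules of early precursors, while Camp, Ngp, Ltf and Lcn2 belong to the secondary granules of later stages. S100a8 and S100a9 encode the calcium-binding pair that fills the cytoplasm of neutrophils, and Ptprc encodes CD45, a phosphatase on the surface of most white blood cells.

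The targeted gene was measured first. Levels are in CPM, counts per 1e6 UMIs of the pooled barcodes. WT members reached 8.63 CPM (4.83 to 14.2) of Pdgfrb, with UMIs in 7 of 46, and KO members 1.09 CPM (up to 3.95), with UMIs in 2 of 44. In mesenchymal barcodes, those with at least 20 collagen UMIs, WT stood at 67.2 CPM and KO at 9.74 CPM of Pdgfrb. Macrophages held 16.7 CPM in the WT library and 0.426 CPM in the KO library. The level was lower in the library labelled KO in each of these sets, and reads at the 3′ end do not show whether the deleted part is transcribed.

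Depth was high. WT members held 5377 to 133825 UMIs with a median of 26768, and KO members held 6970 to 186085 with a median of 28783.5, against medians of 13276 and 12352 over all other barcodes. A sum of UMIs is easier to reach in a deep barcode. At the edge of the rule, the sum of the 5 genes was exactly 8 in 2 WT and 3 KO members, and it was 7 in 2 WT and 2 KO barcodes that stayed outside. No barcode from 1000 UMIs up to the minimum of 2000 met the other limits, and C1q was at 0 in 44 WT and 41 KO members. Of all barcode sequences kept, 20 were shared by the libraries, and none of the shared sequences was a member in either.

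The genes of the rule were uneven among the members, and their values are given only to describe the choice. Coro1a, which binds actin in leukocytes, had UMIs in 45 of 46 WT and 42 of 44 KO members, at 722 and 646 CPM. Laptm5, a lysosomal protein of blood cells, had UMIs in 45 and 43 members, at 250 and 282 CPM. Both were spread widely. Ptprc had UMIs in 30 WT members, with a median of 3 and at most 14, and in 25 KO members, with a median of 2 and at most 13. Mpo had UMIs in 12 WT and 15 KO members, and its highest WT and KO members held 218 and 219. S100a8, which the rule did not use, had UMIs in 11 WT and 8 KO members, with a median of 0 in both libraries.

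Clustering of the members gave 7 groups, and they did not all bear out the name of white blood cells. Clusters were named only where 1 list of cell type markers had the most genes among their 10 top genes. That was 6 genes for the neutrophil-like, 3 each for the monocyte-like and endothelial-like, and 2 each for the lymphoid-like and mast cell-like cluster. Neutrophil-like, monocyte-like, lymphoid-like, mast cell-like and endothelial-like clusters held 12, 16, 11, 10 and 11 barcodes. The other clusters had a tie and stayed without a cell type name. They are called here after genes picked once their values were known: Pf4-high, with 17 barcodes, and Myb-Cdk6, with 13. Every cluster held barcodes of both libraries, and no comparison of cluster sizes was made. Doublets were not called or removed.

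**Figure D1:**
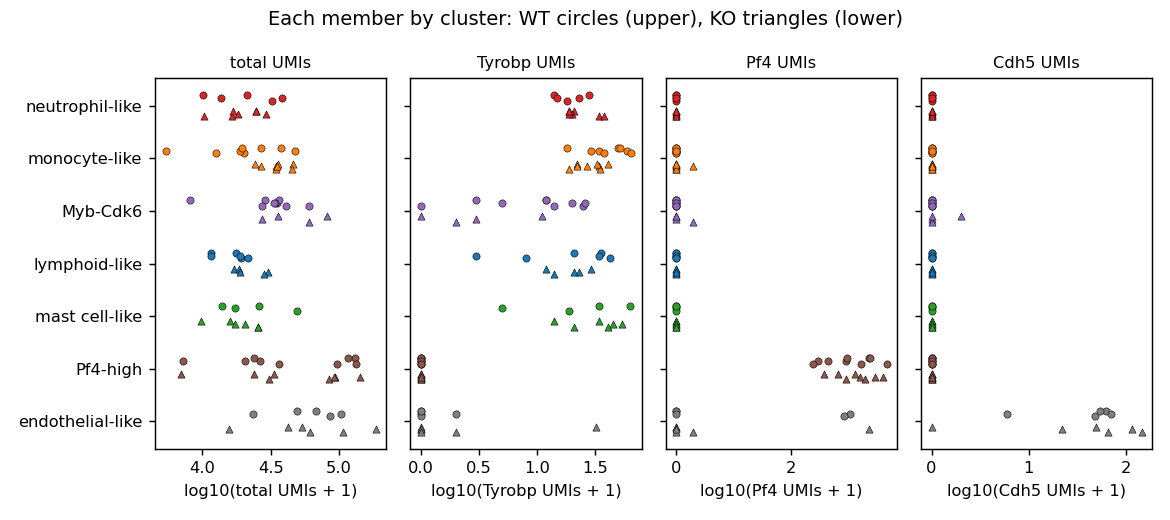
Total UMIs and UMIs of Tyrobp, Pf4 and Cdh5 in each of the 90 members, by cluster, on log10(UMIs + 1) axes. Circles are WT barcodes and triangles KO barcodes. All 17 Pf4-high barcodes are at 0 for Tyrobp and hold at least 247 Pf4 UMIs, and outside the endothelial-like cluster no barcode holds more than 1 Cdh5 UMI.

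The Pf4-high and endothelial-like clusters, 28 of the 90 members, were led by genes of other cells than white blood cells, although some endothelial-like barcodes held white cell or progenitor genes as well. Tyrobp, the signaling adaptor of myeloid and natural killer cells, had no UMI in any of the 17 Pf4-high barcodes. Neither had Ptprc, but it is a gene of the rule and its values only describe the choice. In the 9 WT barcodes of that cluster Pf4, a chemokine of platelet granules, ranged from 247 to 4695 UMIs with a median of 954. In the 8 KO barcodes it ranged from 380 to 4069 with a median of 1475. The libraries overlapped widely. All 15 megakaryocyte genes had UMIs there, among them Ppbp at 2391 CPM, Gp9 at 895 CPM and Itga2b at 818 CPM. Of the rule genes Coro1a, a regulator of actin, had 6 to 80 UMIs in these WT barcodes and 7 to 53 in the KO barcodes, beside Laptm5 with at most 42. Collagen genes reached 20 UMIs in 10 of the 17, and the mesenchyme list of 11 genes summed to 1484 CPM, led by Col3a1 at 339 CPM; the part of other cells in these barcodes was not tested.

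The endothelial-like cluster had the deepest barcodes, with a median of 61810 UMIs and a maximum of 186085. Cdh5, which encodes VE-cadherin, was at 5 to 70 UMIs in the 5 WT barcodes and at 0 to 146 in the 6 KO barcodes. Cldn5, a tight junction gene, reached 436 CPM and Sox17, a factor of arterial endothelium, 181 CPM. White cell and progenitor genes were present in part of the cluster. Ptprc, a gene of the rule, had UMIs in 2 of these 11 barcodes, both WT. Outside the rule, Tyrobp had UMIs in 3, Spi1 in 4, Myb in 4, Kit in 7 and Runx1 in 7. The KO barcode without Cdh5 held 31 Tyrobp UMIs, 4 of Ccr2 and 28 of Laptm5, which the rule used. The sum of the 5 rule genes was between 8 and 62, with a median of 19. Stmn2, on the neural list, reached 737 CPM there, while Elavl3, Sox10 and Ngfr were at 0. Pf4 was at 100 UMIs or more in 3 barcodes, and globin genes took 5.31% of the UMIs of a WT barcode and 4.88% of those of a KO barcode.

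The remaining 62 members, 32 from WT and 30 from KO, fell in the 5 clusters here called the white cell clusters. They include Myb-Cdk6, which has no cell type name. A KO barcode of Myb-Cdk6 with 81467 UMIs held no UMI of Ptprc, Tyrobp or Spi1. Tyrobp was at 1002 CPM in the neutrophil-like, 1195 in the monocyte-like, 1089 in the lymphoid-like and 1453 in the mast cell-like cluster, and at 240 CPM in Myb-Cdk6. Ptprc is a gene of the rule, so its values describe the choice. It had UMIs in 16 of 16 monocyte-like, 11 of 11 lymphoid-like, 10 of 12 neutrophil-like, 8 of 10 mast cell-like and 8 of 13 Myb-Cdk6 barcodes. Spi1, the gene of the transcription factor PU.1, was at 454 CPM in the neutrophil-like and 416 CPM in the monocyte-like cluster, and at 1.82 CPM in Pf4-high. The 11 endothelial genes summed to 15.7 CPM in the neutrophil-like, 129.5 in the monocyte-like, 131 in the mast cell-like, 187 in the lymphoid-like and 350 CPM in the Myb-Cdk6 cluster, where Egfl7 took 309 CPM. They summed to 274.5 CPM in Pf4-high and 5382 CPM in the endothelial-like cluster.

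**Figure D2:**
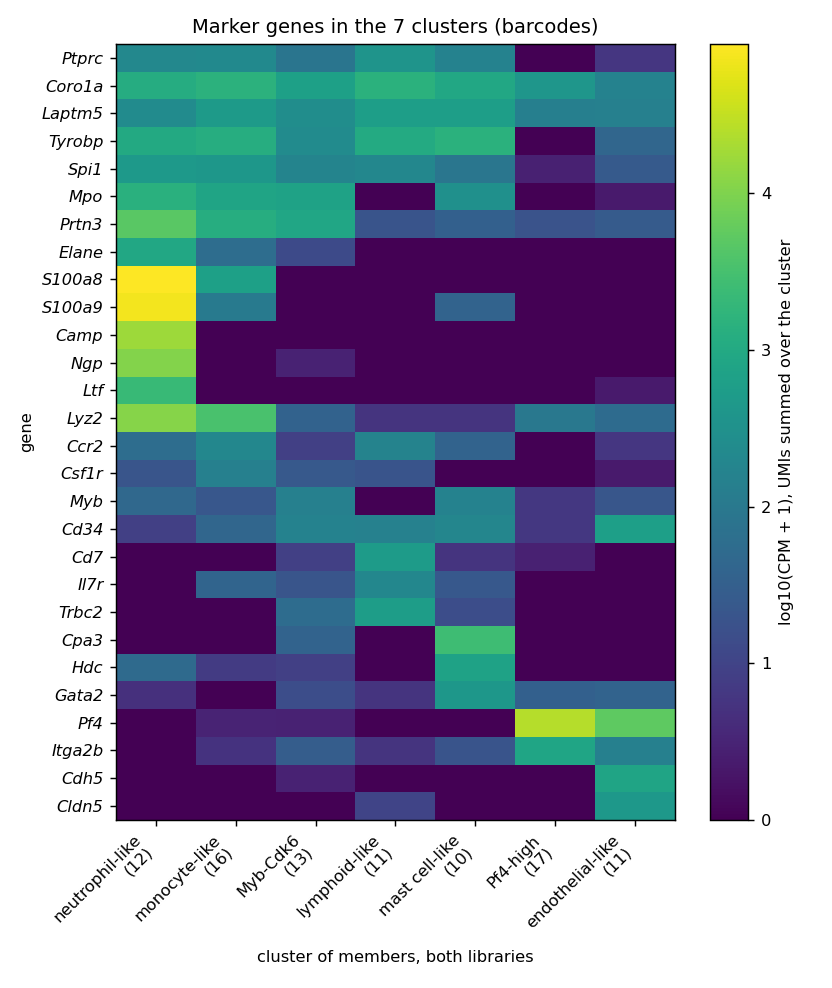
Level of 28 marker genes (rows) in the 7 clusters (columns, number of barcodes in parentheses), as log10(CPM + 1) of UMIs summed over both libraries. S100a8 and Camp are highest in the neutrophil-like, Cd7 in the lymphoid-like, Cpa3 in the mast cell-like, Pf4 in the Pf4-high and Cdh5 in the endothelial-like column.

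The neutrophil-like barcodes stood at the extreme of granule genes. S100a8 ranged from 684 to 2409 UMIs in the 5 WT barcodes, with a median of 1968, and from 915 to 2803 in the 7 KO barcodes, with a median of 2327. It took 89844 CPM of the cluster, and S100a9 took 74451 CPM. No barcode of this cluster was low for both genes, and the libraries overlapped. In mesenchymal barcodes, with a median depth of 22157.5 UMIs in WT and 22141 in KO, S100a8 had a UMI in 0.811% and 0.892%, and among barcodes of at most 100 UMIs, which hold free RNA, it was at 84.9 CPM in the WT and 83.5 CPM in the KO library. All 20 genes of the neutrophil list had UMIs, and Camp, which encodes the antimicrobial peptide cathelicidin, reached 17111 CPM, Ngp 10858, Lcn2 6386 and Ltf, the gene of lactoferrin, 2211. The stefin genes Stfa2, Stfa2l1 and Gm5483 were among its top genes as well, at 2457, 4930 and 15945 CPM, but they are near-identical copies and their single values are uncertain.

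Primary granule genes were found in part of these 12 barcodes, mostly beside secondary granule genes. Elane, neutrophil elastase, had UMIs in 5 of them, with 7 and 111 in WT and 31, 38 and 54 in KO. The same 5 barcodes held 30 to 168 Mpo UMIs and 186 to 309 Prtn3 UMIs, while the 7 without Elane had no Mpo and at most 26 Prtn3 UMIs. Of the 5 Elane barcodes, 4 held 352 to 1242 Camp UMIs and 250 to 283 Ngp UMIs, and the WT barcode with the most Elane held 8 of Camp and none of Ngp. The highest Camp counts of the cluster, 1242 and 781, were in Elane barcodes. Ltf had 0 to 67 UMIs in the Elane barcodes. Of the 7 barcodes without Elane, 5 held 75 to 120 Ltf UMIs and 2, 1 from each library, held none and no Ngp, though S100a8 stood at 1968 and 915. These 2 barcodes also held genes of the monocyte list. The WT barcode held 7 UMIs of Ccr2, 8 of F13a1 and 2 of Csf1r, and the KO barcode held 8, 3 and 2. No other barcode of the cluster held Ccr2. Of the 5 barcodes with at least 100 UMIs of the primary trio, 4 also held at least 100 UMIs of the secondary genes, and these limits were set after the values were seen.

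**Figure D3:**
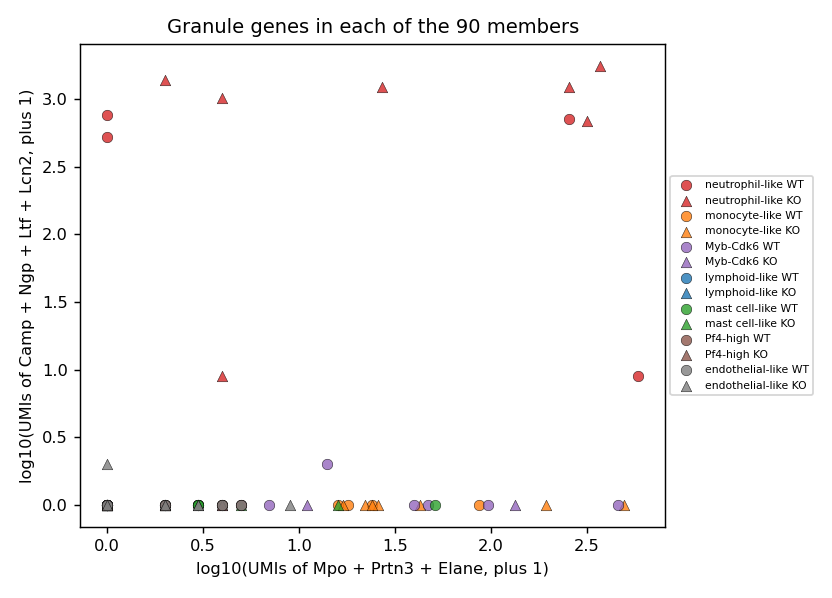
UMIs of the primary granule genes Mpo, Prtn3 and Elane (x axis) against those of the secondary granule genes Camp, Ngp, Ltf and Lcn2 (y axis), both as log10(UMIs + 1), in each of the 90 members. Barcodes above 100 secondary granule UMIs are 9 of the 12 neutrophil-like ones, while primary granule genes also spread over the monocyte-like and Myb-Cdk6 clusters at the bottom of the plot.

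Primary granule genes had UMIs in other clusters too. Mpo and Prtn3 were used to choose the members, so their values by cluster describe that choice, while Elane was not used. At least 10 UMIs of Mpo, Prtn3 and Elane were found in 6 neutrophil-like, 11 monocyte-like, 7 Myb-Cdk6 and 2 mast cell-like barcodes, and in none of the lymphoid-like, Pf4-high and endothelial-like ones. Mpo stood at 1409 CPM (1267 to 1562) in the neutrophil-like, 779 CPM (701 to 863) in the monocyte-like and 712 CPM (640 to 789) in the Myb-Cdk6 cluster. Elane had the same order but fell more steeply: it was at 943, 57.3 and 11.8 CPM in those clusters. Single barcodes weigh on these sums. In the monocyte-like cluster 1 barcode held 59.7% of Mpo UMIs and 1 held all 38 UMIs of Ctsg, the gene of cathepsin G. In Myb-Cdk6 1 barcode held 60.2% of Mpo UMIs. Prtn3 also had a UMI in 16.7% of WT and 14.9% of KO mesenchymal barcodes, at 6.68 and 5.95 CPM, so that single UMIs of it say little.

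Promoters of 4 granule genes are shown, 2 of the primary kind, 1 of the secondary kind and S100a8, because their UMIs varied among the neutrophil-like barcodes. Prtn3, a gene of the rule, was also at 1210 CPM in the monocyte-like and 867 CPM in the Myb-Cdk6 cluster. The promoters are from RefSeq (GRCm38.p6), 250 bases before to 50 after the start, on the strand of the gene, at chr10:79879417-79879716 (plus) for Prtn3, chr10:79886062-79886361 (plus) for Elane, chr9:109849407-109849706 (minus) for Camp and chr3:90668821-90669120 (plus) for S100a8. Capitals mark GAGGAA, a core of PU.1 sites, on either strand.
Prtn3: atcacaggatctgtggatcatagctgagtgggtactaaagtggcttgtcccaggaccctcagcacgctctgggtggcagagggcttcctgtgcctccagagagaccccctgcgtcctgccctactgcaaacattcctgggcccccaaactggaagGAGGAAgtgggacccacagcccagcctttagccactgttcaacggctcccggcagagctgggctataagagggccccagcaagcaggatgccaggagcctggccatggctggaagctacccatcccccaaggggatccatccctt
Elane: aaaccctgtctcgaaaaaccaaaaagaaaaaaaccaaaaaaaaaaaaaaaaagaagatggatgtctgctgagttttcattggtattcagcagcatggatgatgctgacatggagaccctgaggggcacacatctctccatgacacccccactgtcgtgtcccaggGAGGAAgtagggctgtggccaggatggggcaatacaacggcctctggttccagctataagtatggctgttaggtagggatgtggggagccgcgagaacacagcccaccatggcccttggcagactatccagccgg
Camp: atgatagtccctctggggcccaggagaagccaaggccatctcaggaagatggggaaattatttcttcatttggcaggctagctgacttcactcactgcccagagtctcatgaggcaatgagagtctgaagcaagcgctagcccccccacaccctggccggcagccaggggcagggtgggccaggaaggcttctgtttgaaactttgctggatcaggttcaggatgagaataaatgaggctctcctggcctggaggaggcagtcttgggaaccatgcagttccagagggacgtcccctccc
S100a8: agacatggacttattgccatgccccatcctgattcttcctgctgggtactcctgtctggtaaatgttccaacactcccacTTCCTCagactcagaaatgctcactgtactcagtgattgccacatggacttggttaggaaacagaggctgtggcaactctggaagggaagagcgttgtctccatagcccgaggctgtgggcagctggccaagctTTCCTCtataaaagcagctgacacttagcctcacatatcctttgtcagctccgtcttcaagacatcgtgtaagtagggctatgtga
GAGGAA was found 1 time in Prtn3, 1 time in Elane, 2 times in S100a8 and not in Camp, and 28.3% of 32851 promoters of the same length hold it. A core of C/EBP sites, TTGCNNAA on either strand, was found in none of these 4 and in 10.8% of all. It was found in the promoters, not printed here, of other neutrophil genes, 2 times in Ngp and 1 time each in Ltf, Lcn2 and S100a9. The promoter of Pf4, a gene of platelets, held it 1 time as well, and those of Mpo and Cpa3 did not hold it. A match is a description of letters and not a site, and both motifs were chosen after the values were seen.

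The monocyte-like cluster carried Lyz2, which encodes lysozyme, at 3369 CPM, but unevenly. Lyz2 ranged from 0 to 405 UMIs in the 8 WT barcodes, with a median of 97.5, and from 0 to 121 in the 8 KO barcodes, with a median of 4.5. The highest KO barcode held 78.1% of the KO UMIs. All 12 genes of the monocyte list had UMIs. WT barcodes held Ccr2, a chemokine receptor of monocytes, at 212 CPM (151 to 288) and KO barcodes at 181 CPM (135 to 238), and Irf8, a factor of the monocyte lineage, at 212 and 227 CPM. For Ms4a6c the WT level was 307 CPM (233 to 397) and the KO level 163 CPM (119 to 218), and for Fcgr1, a high-affinity Fc receptor, they were 190 CPM (133 to 264) and 70.9 CPM (43.3 to 109.5). The UMIs of both genes overlapped between the libraries, with 0 to 13 and 0 to 18 for Ms4a6c and 0 to 8 and 0 to 10 for Fcgr1. Csf1r, the receptor of macrophage growth factor, was lower here at 140 CPM than in macrophages, where the WT and KO levels were 511 and 494 CPM.

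The Myb-Cdk6 cluster had UMIs of 17 of the 19 stem and progenitor genes, all but Mecom and Spink2. Myb, a factor needed for definitive blood, was at 140 CPM with 0 to 19 UMIs and a median of 7, and Cdk6, a kinase of the cell cycle, at 132 CPM. Cd34, a surface marker of progenitors and endothelium, was at 153 CPM, Runx1, the master factor of blood emergence, at 110 CPM and Adgrg1 at 110 CPM. Kit was at 41.3 CPM and Flt3, a receptor of lymphoid and myeloid progenitors, at 35.4 CPM. Mecom had no UMI (up to 7.25 CPM by its interval) and Hlf had 3, all in 1 barcode. The 9 WT barcodes held Cd34 at 220 CPM (171 to 280) and the 4 KO barcodes at 53.8 CPM (26.8 to 96.2), with 1 to 16 and 0 to 8 UMIs, which overlap. The KO barcodes held 8, 0, 3 and 0 Cd34 UMIs. The deepest of them, with 81467 UMIs in all, held none and weighs on the pooled KO level. Among the clusters Cd34 was highest in the endothelial-like cluster, at 622 CPM.

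The lymphoid-like cluster carried Cd7, a surface protein of T and natural killer cells, in 11 of 11 barcodes, at 514 CPM. Cd7 ranged from 2 to 23 UMIs in the 6 WT barcodes, with a median of 5.5, and it ranged from 2 to 25 in the 5 KO barcodes, with a median of 6. Runx3 reached 645 CPM and Id2, a factor of innate lymphoid cells, 823 CPM. Il7r, the interleukin 7 receptor, was at 196 CPM in 10 of 11 barcodes and Trbc2, a constant segment of the T cell receptor, at 570 CPM in 7 of 11. Klrd1 was at 238 CPM. Of 25 lymphoid genes, 13 had UMIs, and among those with none were Rag1, Dntt, Cd79a, Vpreb1, Igll1, Ebf1, Klrb1c, Ncr1, Gzma, Thy1 and Il2ra. Cd74, the invariant chain of MHC class II, reached 435 CPM, more than in any other cluster, while of the class II genes H2-Aa and H2-Eb1 had 1 UMI each and H2-Ab1 none, and Ciita had none.

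The mast cell-like cluster carried Cpa3, mast cell carboxypeptidase, at 2548 CPM in 9 of 10 barcodes. Cpa3 had 0 to 164 UMIs in the 4 WT barcodes, of which 1 held 91.1%, and 1 to 153 UMIs in the 6 KO barcodes. Hdc, which makes histamine, was at 715 CPM, Gata2 at 425 CPM and Kit, the stem cell factor receptor, at 258 CPM. Of the 14 mast cell genes 9 had UMIs, and Mcpt4, Tpsb2, Tpsab1, Mrgprb1 and Tph1 had none. Cma1, a chymase, was at 199 CPM, with 41 of its 44 UMIs in 1 barcode. Of the 6 genes of the basophil list 5 had UMIs, and only Mcpt8, a basophil protease, had none. Ifitm1 took 8993 of the 9165 CPM of this list, with 25 to 525 UMIs in 10 of 10 barcodes. The cytokines Il13, at 471 CPM in 4 barcodes, and Il4, at 109 CPM in 8 barcodes, and Cd3g, a chain of the T cell receptor complex, at 285 CPM in 7 barcodes, were among its top genes as well.

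Markers of eosinophils were low. Their 9 genes summed to 58.7 CPM in the neutrophil-like, 45.3 CPM in the mast cell-like and 31.8 CPM in the monocyte-like cluster and to less than 5 CPM in each other cluster, and Epx, Ear1 and Ear6 had no UMI in the members of either library. Dendritic genes were low outside the lymphoid-like cluster, led by Cd74. Genes of the NADPH oxidase, with which phagocytes make superoxide, were present in several clusters: Cyba reached 1745 CPM and Cybb 571 CPM in the neutrophil-like cluster, against 938 and 250 CPM in the monocyte-like cluster. Among cell cycle genes, Top2a, a topoisomerase of dividing cells, was between 226 and 477 CPM in all 7 clusters.

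Across all members, the levels of some leading regulators and receptors were as follows. Of all 7192 genes described between the libraries, 0.806% were at least 2-fold higher and 2.14% at least 2-fold lower in KO. By list, 1 of 24 blood transcription factors and 2 of 8 chemokines and cytokines were lower. Of 11 integrins and selectin ligands 1 was higher, and none of 9 immune receptors was 2-fold apart. Among blood transcription factors the WT members held Zeb2 at 187 CPM (167 to 209) and the KO members at 191 CPM (171 to 212), and Lmo2, a partner of the stem cell factors, at 114 and 153 CPM. Cebpb, a factor of myeloid cells, was at 166 and 78.2 CPM. Fcer1g, the common chain of Fc receptors, led the immune receptors at 591 and 589 CPM. Pf4 led the chemokines and cytokines through the Pf4-high cluster, at 9161 and 8883 CPM over all members, followed by Ppbp at 1187 and 532 CPM. In the white cell clusters Tgfb1 led them at 168 and 178 CPM, and Ccl3, a chemokine, had 76.6% of its WT UMIs in 1 barcode. Itgb1, the integrin β1 chain, stood at 342 and 276 CPM, and Itga4, the chain of VLA-4, at 54.1 CPM (43.7 to 66.2) and 116 CPM (101 to 133), with 0 to 14 and 0 to 38 UMIs. Hmga2, a chromatin gene of fetal progenitors, was measured at 398 CPM (369 to 429) over WT members and at 172 CPM (153 to 192) over KO members, with a median of 2 UMIs in each. For both genes the members of the libraries overlapped.

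Members differed from macrophages in the same direction in both libraries for many genes. Macrophages were taken with the same limits and a C1q sum of at least 10, which gave 132 barcodes in WT and 103 in KO. Of 9870 genes with at least 50 UMIs, 738 were at least 2-fold higher in members in both libraries (7.48%) and 627 were at least 2-fold lower (6.35%). Without the Pf4-high and endothelial-like clusters the counts were 287 of 8893 higher (3.23%) and 1228 lower (13.8%), and 180 genes were higher and 441 lower in both settings. A count of 0 entered as 3 UMIs in that library, which makes such a ratio a bound.

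By list, the members' genes stood as follows, and these counts are a description only. A gene was described by its UMIs in members and macrophages together, so it can pass that limit through 1 side. The neutrophil list held 17479 and 37726 UMIs in WT and KO members against 106 and 70 in WT and KO macrophages. The endothelial list held 1945 and 2950 against 161 and 107. Genes that pass in this way are bound to stand apart, so a count above the background shares is no support. Of 16 described neutrophil genes, 14 were at least 2-fold higher in members and 1 was lower, with a median log2 ratio of 6.24 against 0 over all genes (for each gene the ratio of the library nearer to 0, and 0 where their signs differed), and of 8 described primary granule genes 7 were higher, a count that includes Mpo and Prtn3, which the rule used. Of 18 described macrophage genes 17 were at least 2-fold lower, and the median was -4.08. The exception was Pf4, which without the Pf4-high and endothelial-like clusters was lower too, at 0 CPM in the WT and 2.34 CPM in the KO library against 1052 and 1270 CPM in macrophages. Of 11 endothelial genes 11 were higher with all members, and only 2 could be described without those clusters. Of 11 described monocyte genes 2 were higher and 7 lower, and of 18 cell cycle genes none was 2-fold apart.

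**Figure D4:**
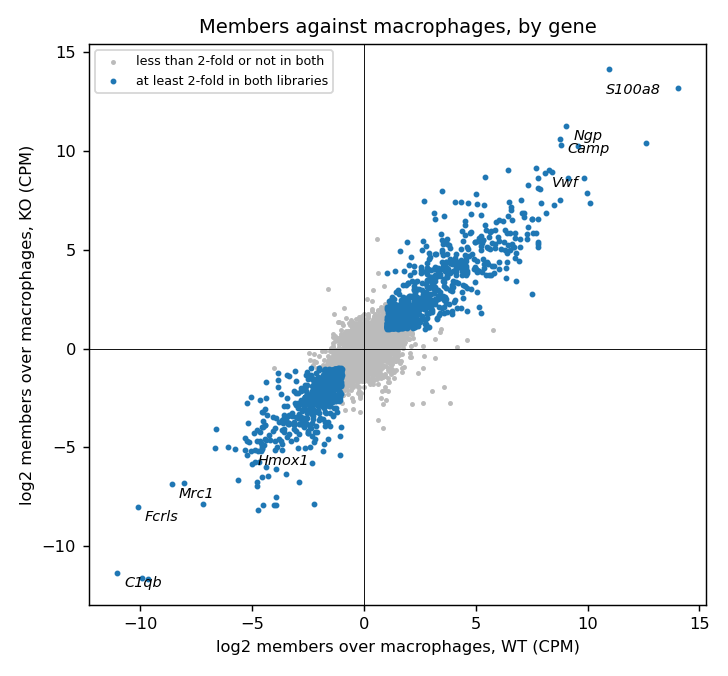
Log2 ratio of CPM in members over macrophages for 9870 genes, WT on the x axis and KO on the y axis. Blue points are at least 2-fold apart in the same direction in both libraries, and S100a8 lies at 14.05 in WT and 13.16 in KO.

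The highest genes over macrophages were S100a8, S100a9, BC100530, Gm5483, Ngp, Stfa1, Camp, Alox12, Clu, Stfa3, Ltf and Vwf. S100a8 was at 5159 CPM in WT members and 0.304 CPM in WT macrophages, and at 7820.5 and 0.853 CPM in KO. Camp was at 395 CPM in the WT and 2016 CPM in the KO library members and had no UMI in macrophages of either library, so that its log2 ratio was at least 8.76 in WT and 10.62 in KO. Alox12, a platelet lipoxygenase, stood at 280 CPM and Vwf, the gene of von Willebrand factor in platelets and endothelium, at 246 CPM in WT members, and neither was among the 12 highest in the white cell clusters. The lowest were C1qb, C1qc and C1qa, which the rule set, and then Fcrls, Ms4a7, Mrc1, Ccl24, Ccl12, Il18, Cd36, Gm38843 and Hmox1. Mrc1, the mannose receptor, was at 0 and 5.47 CPM in WT and KO members against 674 and 623 CPM in macrophages. Hmox1, heme oxygenase, was at 12.7 and 13.1 CPM against 427 and 471 CPM.

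Between the genotypes, few genes of the members were far apart. Of 7192 genes with at least 50 UMIs, 58 were at least 2-fold higher in KO (0.806%) and 154 at least 2-fold lower (2.14%), and over all of them the log2 ratio had a median of -0.03. In the 5 white cell clusters 44 of 3901 were higher (1.13%) and 127 lower (3.26%), and 20 genes were higher and 59 lower in both settings. Of the 212 genes 2-fold apart in all members, 21 had over 50% of their UMIs in 1 barcode (9.91%), against 26 of all 7192 (0.362%). In the white cell clusters they were 9 of 171 (5.26%), against 10 of 3901 (0.256%). Xist, the lowest gene, and the Y-linked genes Ddx3y and Eif2s3y, the highest, are in these counts but are left out of the lowest and highest genes named next, since sex is described apart. Members of different clusters are pooled in these ratios, and a different mix of barcodes cannot be told apart from a different level within them.

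Several of the lowest genes had a like ratio in the pooled macrophages and in the pool of all other barcodes. Hist1h2ap, a histone H2A gene, was at 610 CPM in WT members and 21.3 CPM in KO members, a log2 ratio of -4.84 (-5.34 to -4.38), and the ratio was -4.70 in macrophages and -5.17 in all other barcodes. Gm10076 was at -4.24, -4.45 and -4.36, Usp50 at -4.07, -3.88 and -3.61, and Nme2 at -3.07, -2.75 and -2.87 in these sets. On the high side AY036118 was at 2.17, 2.42 and 2.24. For each of these 5 genes the ratio had the same direction and a like size in members, macrophages and all other barcodes.

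Several other low genes had a large share of their UMIs in 1 barcode. Il1b, the gene of interleukin 1β, was at 46.6 CPM in the WT and 1.09 CPM in the KO library members, a ratio of -5.41 (-8.48 to -3.51), with 74.7% of its UMIs in 1 barcode, and it was at 0.21 in macrophages. Lhx9, Wt1 and Tcf21, factors of the gonad and the coelomic lining, had 96.1%, 76.0% and 70.2% of their UMIs in 1 barcode. Tagln, a smooth muscle gene, had 47.2% in 1 barcode. Tagln was at -3.20 in macrophages and -0.68 in all other barcodes. None of these 4 genes was among the 10 lowest in the white cell clusters. There the lowest also held Fn1 at -3.32, Ifitm3 at -2.81, Retnlg, a neutrophil gene, at -2.95 and Bcl2a1b at -2.78. Retnlg had 88.1% and Bcl2a1b 54.7% of its UMIs there in 1 barcode.

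**Figure D5:**
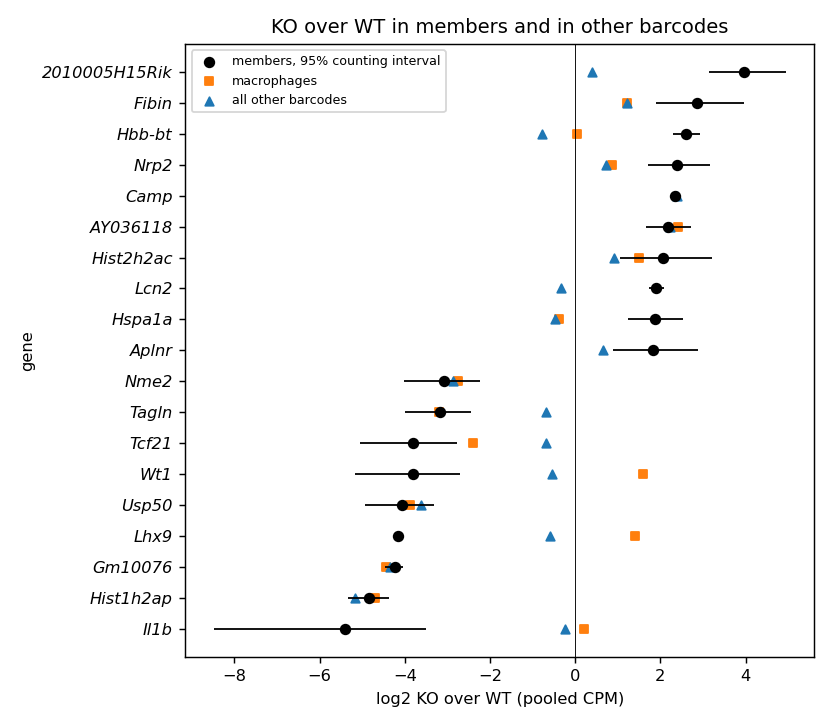
Log2 ratio of KO over WT for 9 of the 10 lowest and the 10 highest genes of all members, sex genes left out (black, with 95% counting intervals), beside the ratio in macrophages (orange) and all other barcodes (blue). Lhx9 is a bound without an interval. Orange and blue points lie close to the black one for Hist1h2ap, Gm10076, Usp50, Nme2 and AY036118 and both lie far from it for Il1b, and no orange point is drawn where macrophages held 3 UMIs or fewer in each library.

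Secondary granule genes were among the highest. Camp was at 395 CPM in the WT and 2016 CPM in the KO library, a log2 ratio of 2.35 (2.23 to 2.47), and Lcn2, a siderophore-binding protein, at 190 and 712 CPM, a ratio of 1.91 (1.73 to 2.09). 2010005H15Rik, another neutrophil-like cluster gene, was at 6.91 and 108 CPM, a ratio of 3.97 (3.13 to 4.95). Of the 14 described neutrophil genes 7 were at least 2-fold higher and 2 lower in KO, against 0.806% and 2.14% of all genes. Within the neutrophil-like cluster, Camp was at 0, 8, 53, 273 and 352 UMIs in the 5 WT barcodes and at 0 to 1242 with a median of 411 in the 7 KO barcodes, and Lcn2 was at 0, 0, 66, 123 and 141 in WT and at 8 to 363 with a median of 191 in KO. The libraries overlapped for both genes. The WT and the KO barcode without Camp were the 2 of this cluster that also held Ccr2. In all other barcodes, where free RNA is counted too, the ratio of Camp was 2.40 and that of Lcn2 -0.33. Hbb-bt, a globin gene, was at 2.61 but had 54.7% of its UMIs in 1 barcode, and Aplnr, a receptor of vein endothelium, had 66.7% in 1. Nrp2, at 2.40, Fibin, at 2.85, Hist2h2ac, at 2.06, and the heat shock gene Hspa1a, at 1.87, complete the 10 highest outside the sex genes. In the white cell clusters the 10 highest also held Gata2 at 1.73, Car2 at 1.81, Cpox at 2.65, with 69.7% of its UMIs in 1 barcode, Vamp5 at 1.57, Epb41 at 1.55 and Jun at 1.52.

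By list, of 24 described blood transcription factors none was at least 2-fold higher and 1 was lower in KO. In the white cell clusters 2 of 18 were higher, against 1.13% of all genes, and 1 was lower. Of 18 described genes of leukocyte cytoskeleton and signaling, 18 cell cycle genes and 6 NADPH oxidase genes, none was 2-fold apart, but 1 of 17 cytoskeleton and signaling genes was lower in the white cell clusters. Against 2.14% of all genes, 1 of 13 described stem and progenitor genes, 3 of 10 monocyte genes and 3 of 9 macrophage genes were lower. In the white cell clusters, against 3.26%, 1 of 9 stem and progenitor genes, 4 of 9 monocyte genes and 4 of 6 macrophage genes were lower, and 1 stem and progenitor gene was higher. Of 7 erythroid genes 4 were higher, against 0.806% of all genes, but in the white cell clusters 2 could be described and both were lower.

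The libraries differed in sex. Their members were checked for Xist and for 4 genes of the Y chromosome, Uty, Ddx3y, Eif2s3y and Kdm5d. Xist, the RNA that silences an X chromosome in female cells, had UMIs in 45 of 46 WT members, 97.8% (88.5 to 99.9%), and in 0 of 44 KO members, for which the exact interval reaches 8.04%. Y-linked genes had UMIs in 40 of 44 KO members, 90.9% (78.3 to 97.5%), and in 0 of 46 WT members, for which it reaches 7.71%. No member held both, and 1 WT and 4 KO members held neither. Every member with either signal thus carried that of female cells in WT and that of male cells in KO.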

How the data were processed

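Reads of the 2 libraries were aligned by the authors with Cell Ranger 3.1.0 to GRCm38 (mm10), per the submitters' processing notes, and the deposited counts are whole numbers of UMIs per gene and barcode, with no cells called and no normalization. From them, barcodes were kept by depth and mitochondrial share, and members by the 8 genes given above. The members and gene lists were chosen with earlier results of these data known, and the names of the Pf4-high and Myb-Cdk6 clusters, the granule limits and the motifs after their values were seen. UMIs were summed over barcodes and scaled to CPM. Intervals are exact Poisson for CPM, Clopper-Pearson for shares and conditional binomial for ratios, all at 95%. Genes with at least 50 UMIs were described, and 3 UMIs stand for a count of 0. Clusters are Leiden clusters (leidenalg 0.10.2, igraph 0.11.9) on 10 principal components of 500 variable genes, 10 neighbours, with library means removed and the genes of the rule, globin, mitochondrial, ribosomal and sex genes left out. The study's Wilcoxon test over cells was not used, since cells are not replicates. Python 3.11.15, numpy 2.4.6 and scipy 1.17.1 were used. Ratios, intervals and clusters were tested on simulated counts, drawn from the pooled profiles of these data with counting error only. Those counts hold no other spread between barcodes and no doublets, so they do not show how the methods behave under such spread. Genes were named by rule: up to 4 most abundant of a list, 10 top genes of a cluster, 12 highest and 12 lowest against macrophages, and 10 highest and 10 lowest between genotypes, and some further genes of the lists, such as those at 0, were added after their values were seen. A few genes that the rule or the lists name are not reported here.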

Additional observations from a re-analysis of the deposited data

How the results depend on the processing

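No paired analysis was possible because each genotype has 1 library. The number of members, 90, stayed within 1.5 times under 9 of 10 other settings (62 to 112), and fell to 49 (25 WT, 24 KO) with a mitochondrial share under 5%. The 7 clusters became 4 at resolution 0.5 and 4 with 15 neighbours. There 96.2% and 82.7% of pairs of barcodes that shared a cluster still did. Merging keeps pairs together, so these shares do not show stability. At resolution 0.5 all Myb-Cdk6, lymphoid-like and monocyte-like barcodes lay in a cluster of 42. With 1000 variable genes there were 7 clusters and 87.2% of pairs were kept. Of 16 monocyte-like barcodes 10 stayed together in that setting and 9 with 15 neighbours. The genes at least 2-fold higher in KO numbered 58, but 111 with the mean of the CPM of each barcode, 144 without collagen- or globin-rich members, 191 with a minimum of 20 UMIs, 536 with 1 UMI in each library and 14 of 461 when thinned to 2000 UMIs. Those at least 2-fold lower numbered 154, but 460, 1133 and 18 under the last 3 of these settings. The genes at least 2-fold higher in members than in macrophages numbered 738, but 488 without collagen- or globin-rich members and 287 without the endothelial-like and Pf4-high clusters, which also raised those lower from 627 to 1228; leaving out these clusters was chosen after seeing the data. Thinned to 2000 UMIs, 27 WT members held Xist and 19 held neither it nor a Y-linked gene, and 10 KO members held a Y-linked gene and 34 neither; without the 2 clusters 2 KO members held neither. Of the named genes, no ratio reversed in 109 values between genotypes and 117 against macrophages. This says little, since the genes were named for their large ratios. Of these values, 10 and 15 moved beyond their counting interval. With the mean of the CPM of each barcode the log2 ratio of KO over WT went from 2.61 to 1.56 for Hbb-bt, from -3.80 to -2.40 for Tcf21 and from -4.16 to -2.51 for Lhx9, and without collagen- or globin-rich members that of Hbb-bt was 4.33, that of Camp 1.90 and that of Lcn2 1.46. The cause of these shifts was not tested. With 1 library per genotype, differences between embryos cannot be seen, and at 4 to 17 barcodes per cluster 1 barcode can set a level.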
